A study of Mus musculus with 6 samples.

Results

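The AP-1 genes described here are Fos, Fosb, Fosl1, Fosl2, Jun, Junb, Jund and Atf3, 8 of the 39017 genes counted in polyA RNA-Seq of mouse embryonic stem cells (mESCs). They were taken by gene symbol, and were selected on measured values, with their counts in these libraries already known, so that their levels and differences are given as a description and without a p-value. There were 2 libraries each of Pol II degron mESCs left untreated, of these cells after 6 h with auxin, and of mESCs of the wild type. The degron cells descend from V6.5 mESCs, with an mAID-GFP tag on both copies of Polr2a, which encodes the large Pol II subunit RPB1, and with the plant F-box protein OsTIR1 expressed from the Rosa26 locus under doxycycline. Untreated and auxin-treated cells alike had received 1 μg/ml doxycycline for 12 h, and auxin was given at 500 μM, which leads OsTIR1 to mark the tagged RPB1 for degradation. The wild-type cells are V6.5 mESCs without the tag, and whether they received doxycycline is not given in the sources used here. The degron cells are clonal, picked by the authors for efficient degradation, and the number of clones in these libraries is not given in the sources used here. Tag, clone and OsTIR1 therefore cannot be told apart in the comparison with wild-type cells. Whether the wild-type libraries were prepared together with the degron libraries is not given in the sources used here, so a batch cannot be told apart either.

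AP-1 is a family of dimeric transcription factors in which a protein of the Fos family pairs with one of the Jun family through a leucine zipper, while Jun proteins can also pair with each other and with members of the ATF family. The dimers bind a short palindromic site in promoters and enhancers. Several of these genes are immediate early genes, which serum, growth factors and stress induce within minutes without new protein synthesis, and their mRNAs are known to decay fast through AU-rich elements in the 3′ untranslated region (UTR).

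The promoters of Fos, Fosb, Jun and Atf3 are shown because Fos, Fosb and Atf3 were among the genes furthest from untreated cells in a comparison, and Jun is the main partner of Fos. The sequences are those of RefSeq on GRCm38.p6, from 250 bases before to 50 bases after the start of the gene, written 5′ to 3′ along the gene's own strand. Such a sequence was found for 7 of the 8 genes, all but Fosl1. Capitals mark matches to the searched motifs. The windows lie at chr12:85473640-85473939 (plus strand) for Fos, chr7:19309996-19310295 (minus strand) for Fosb, chr4:95052173-95052472 (minus strand) for Jun and chr1:191183284-191183583 (minus strand) for Atf3.
Fos: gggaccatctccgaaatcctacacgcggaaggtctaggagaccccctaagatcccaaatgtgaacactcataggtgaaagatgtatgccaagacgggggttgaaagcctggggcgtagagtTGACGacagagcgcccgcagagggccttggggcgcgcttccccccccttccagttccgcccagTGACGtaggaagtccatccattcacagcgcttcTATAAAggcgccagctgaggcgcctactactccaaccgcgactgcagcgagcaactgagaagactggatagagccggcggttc
Fosb: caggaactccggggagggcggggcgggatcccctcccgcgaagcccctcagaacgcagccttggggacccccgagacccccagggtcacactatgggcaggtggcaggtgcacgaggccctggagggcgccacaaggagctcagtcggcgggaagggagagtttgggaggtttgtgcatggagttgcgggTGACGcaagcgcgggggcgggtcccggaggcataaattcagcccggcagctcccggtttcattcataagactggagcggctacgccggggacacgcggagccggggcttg
Jun: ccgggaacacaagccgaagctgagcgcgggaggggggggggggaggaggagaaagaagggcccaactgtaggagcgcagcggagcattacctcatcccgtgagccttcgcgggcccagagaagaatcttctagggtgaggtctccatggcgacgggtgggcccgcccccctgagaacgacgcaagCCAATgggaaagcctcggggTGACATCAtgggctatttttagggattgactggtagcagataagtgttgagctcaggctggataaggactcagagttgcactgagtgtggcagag
Atf3: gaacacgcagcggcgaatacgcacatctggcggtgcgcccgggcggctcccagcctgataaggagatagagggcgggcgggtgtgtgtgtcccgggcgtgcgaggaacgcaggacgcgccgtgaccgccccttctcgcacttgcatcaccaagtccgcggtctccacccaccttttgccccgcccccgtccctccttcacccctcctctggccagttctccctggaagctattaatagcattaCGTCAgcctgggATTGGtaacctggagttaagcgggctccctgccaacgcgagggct

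Of the motifs searched, TGACG, the core of the cAMP response element (CRE), stood in 4 of the 7 promoters and in 20.8% of 32851 RefSeq promoters of the same length. Positions are counted from 0 at the first transcribed base in RefSeq. Fos held TGACG at −129 to −125 and at −66 to −62, Fosb at −60 to −56 and Junb at −106 to −102. Atf3 held it on the other strand, as CGTCA, at −7 to −3. The whole CRE, TGACGTCA, which contains TGACG, was in 0 of the 7 and in 1.79% of all promoters. TATAAA, searched on the gene's strand only, was in Fos at −33 to −28 and in Junb at 0 to 5, and in 8.32% of all promoters. The AP-1 site of the Jun promoter, TGACATCA, stood in Jun alone, at −45 to −38, and in 3.62% of all promoters. The consensus AP-1 site, TGANTCA, was in 0 of the 7 and in 7.81% of all, and the CArG box, to which serum response factor binds, in 0 of the 7 and in 1.63%. CCAAT was found in Jun, Junb and, on the other strand as ATTGG, Atf3, against 37.4% of all promoters. All motifs but TATAAA were searched on both strands, and a match describes these letters and not a bound site. Sites more than 250 bases before the start were not searched, so a 0 covers this window only. RefSeq starts equal the GENCODE gene starts for Fos and Jun and differ for Fosb, Fosl2, Junb, Jund and Atf3. Those windows therefore need not be the promoters of the transcripts described next, and that of Jund is not. For Junb, on the minus strand, the GENCODE start is chr8:84978718, inside the window of chr8:84978699-84978998. Its TATAAA at 0 to 5 from the RefSeq start lies upstream of that GENCODE start.

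In the GENCODE vM21 annotation of mm10, Jun, Junb and Jund each have a main transcript of 1 exon and the other 5 genes have 4 exons, whereas 2.76% of 14221 tested protein-coding genes have a single exon and the median is 9 exons. The AU-rich pentamer ATTTA occurred in the 3′ UTR of 8 of 8 genes, between 1 and 8 times with a median of 2.5, compared with 65.1% of the protein-coding genes and a median of 1. The longer nonamer TTATTTATT occurred in 2 of the 8, Fos and Fosl2, and in 7.32% of the protein-coding genes. Fos carries 4 pentamers in 815 bases and Fosl2 carries 8 in 4653 bases. The windows shown are 30 bases of these UTRs, at bases 632 to 661 of the Fos UTR and 3669 to 3698 of the Fosl2 UTR, with ATTTA in capitals. They are shown for the genes whose UTR holds the nonamer. Fosb and Jun, which like Fos and Fosl2 were called higher after auxin, held no nonamer.
Fos: aacgtttttattgtgttttcaATTTATTTA
Fosl2: agaagaaattgacATTTAttttattATTTA

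The libraries held between 14094022 and 15358714 counts. Mitochondrial mRNAs took 0.342% to 0.441% of the counts in the 4 degron libraries and 1.50% to 1.53% in the 2 wild-type libraries. The untreated replicates differed more than the others, with a chi-square of 5.72 per degree of freedom over genes against 2.31 for auxin and 2.60 for wild-type. The records of the wild-type cells name retinas in the RNA extraction, yet 10 of 10 mESC markers were present in every library, and 8 retina markers together had 88 to 114 counts in each library, with Crx and Rcvrn at 0 in all 6. Polr2a, the tagged gene, had 6623 and 6568 counts in untreated, 10396 and 10663 in auxin-treated and 6866 and 7129 in wild-type cells, and since the degron acts on the protein this mRNA does not measure the depletion. In bulk libraries, fewer cells of a type and less RNA per cell cannot be told apart, and CPM below are counts per 1000000 after TMM scaling, which sets the typical gene as unchanged.

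After 6 h of auxin all 8 AP-1 genes had a higher mean than in untreated cells, from 1.09-fold for Jund to 3.34-fold for Fosb, although with scaling to the mitochondrial mRNAs, which lowered the median of all genes to −0.17, Jund was at −0.05 on the log2 scale. The auxin-treated libraries lay above the untreated ones without overlap for 8 of the 8, on the scaling of these 4 libraries. That was so for 25.0% of the 16128 genes tested, and since the genes were chosen with these values known nothing is read from the count. With the quasi-likelihood test of edgeR, and a Benjamini-Hochberg threshold of 0.05 over all genes, Fos, Fosb, Fosl2 and Jun were called higher, 4 of 8, beside 2.56% of all genes called higher and 1.64% called lower. The median log2 fold change was 0.44 over the 8 genes and 0.00 over all genes tested.

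Fos, the founding member of its family and a strong partner of Jun, had 60 and 60 counts in the untreated libraries, 191 and 213 after auxin and 218 and 175 in wild-type cells. The untreated libraries were low and equal, and those of both other groups were at least 175 and overlapped each other. In CPM over the 6 libraries this was 4.13 ± 0.04 (SD, n = 2), 12.8 ± 1.21 and 13.9 ± 2.24. The log2 fold change of auxin over untreated was 1.65 with a standard error of 0.17, a 3.13-fold difference, and 4 of the 2810 genes with a mean of 100 to 300 counts (0.142%, Fos included) were as far above untreated. Fos was called higher in all 13 alternative settings, among them a prior count of 5, which changes fold changes only and can change no call. These settings reuse the same libraries, whose counts were known when the genes were chosen. Calls and class shares, here and for the genes below, are therefore a description only.

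Fosb, a close relative of Fos with a short splice form that lacks the activating end, had 18 and 17 counts untreated, 56 and 70 after auxin and 16 and 24 in wild-type cells. Only the auxin-treated libraries stood apart, and the untreated and wild-type ones overlapped. The fold after auxin was 3.34 (log2 1.74, standard error 0.29). At these low counts 25 of the 1883 genes of its class (mean of 20 to 50 counts, median log2 fold change 0.13) reached that size, or 1.33%. The call was lost without auxin replicate 2 and with no filter on low counts.

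Fosl1, which encodes FRA1, a Fos protein without a strong activation domain, had 48 and 35 counts untreated, 54 and 61 after auxin and 27 and 17 in wild-type cells. The auxin difference was small beside its error, at 0.37 on the log2 scale with a standard error of 0.25, and 30.6% of its class were as far above. The gene at chr19:5447547-5455946 overlaps Ccdc85b on the other strand over 48.3% of its 100-base stretches. Whether the counting used strand is not given in the sources used here, so reads of the overlap could belong to either gene, and Ccdc85b itself was not called in either comparison.

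Fosl2, which encodes FRA2, had 959 and 727 counts untreated, 1273 and 1298 after auxin and 279 and 283 in wild-type cells. Its 3 groups were apart from each other, with the untreated libraries spread widest. The auxin difference was 1.42-fold (log2 0.50, standard error 0.11), matched by 7 of 3595 genes with at least 1000 counts (0.195%). It depended on the untreated library used, being 0.72 on the log2 scale without untreated replicate 1 and 0.30 without untreated replicate 2, and the call was lost without either auxin library.

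**Figure D1:**
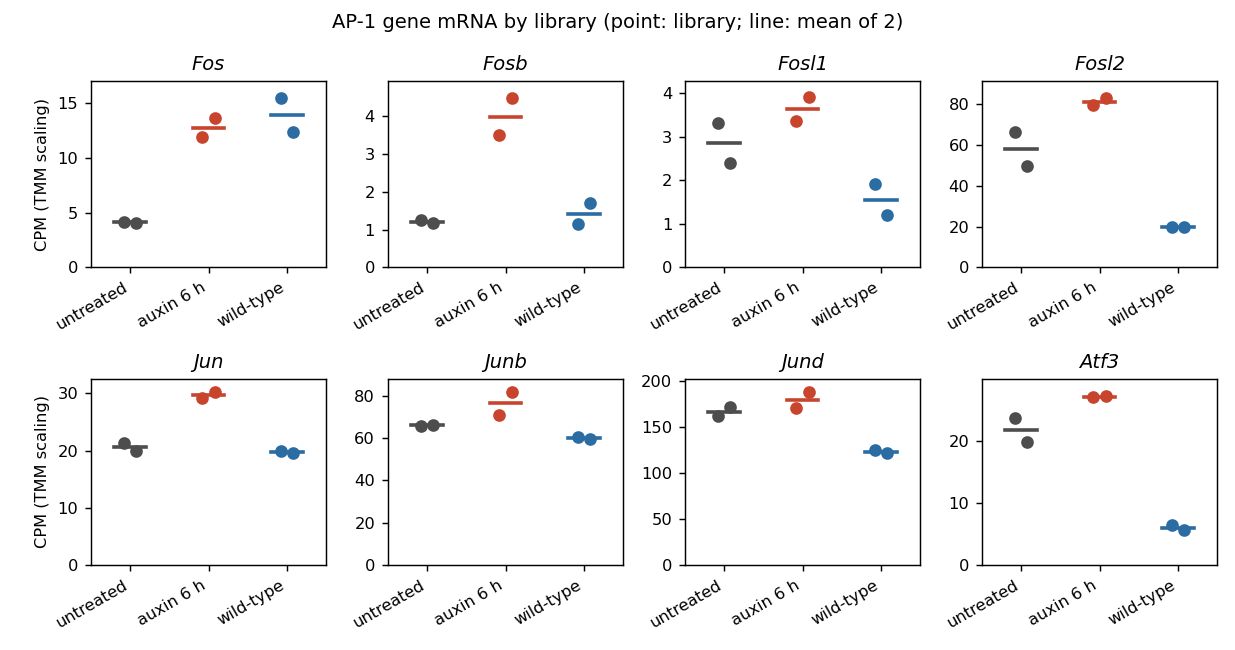
CPM (vertical axis, linear from 0, TMM scaling over the 6 libraries) of the 8 AP-1 genes in the untreated, auxin-treated and wild-type libraries, with 1 point per library and a line at the mean of 2. Fos sits at 4.13 CPM in untreated cells and at 12.8 and 13.9 in the other groups (with mitochondrial scaling wild-type cells were the lower ones), Fosb stands out after auxin only, and Fosl2 and Atf3 are lowest in wild-type cells.

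In the Jun family, Jun, the main partner of Fos and the target of the JNK kinases, had 307 and 291 counts untreated, 466 and 471 after auxin and 280 and 277 in wild-type cells. The auxin-treated pair was high and the other 4 libraries lay close together. The fold after auxin was 1.46 (log2 0.54, standard error 0.10), reached by 29 of 4594 genes of its class (0.631%). Junos lies on the other strand over 4.30% of the 100-base stretches of Jun, and its counts were not analysed here. The call was lost without auxin replicate 2 and with DESeq2 in place of edgeR.

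Junb, often a weaker activator that can hold Jun in check, had 946 and 970 counts untreated, 1137 and 1278 after auxin and 849 and 843 in wild-type cells, a fold after auxin of 1.17 (log2 0.23, standard error 0.08). Jund, the member with steady expression in most cells, had 2336 and 2511, 2733 and 2934, and 1759 and 1731 counts in the same order. Its auxin difference of 1.09-fold (log2 0.12, standard error 0.07) was the smallest of the 8, and with scaling to the mitochondrial mRNAs it turned to −0.05. The 2 groups of Jund also overlapped once all 6 libraries were scaled together. Neither gene was called, except Junb without untreated replicate 1 and with the replicate block, and 3.17% and 10.8% of their class were as far above. Junb shares 3.66% of its 100-base stretches with Prdx2 and Jund 43.5% with Gm11175, both on the other strand. Gm11175 had 0 counts in all 6 libraries.

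Atf3, a stress-induced factor of the ATF family that pairs with Jun proteins, had 342 and 289 counts untreated, 431 and 424 after auxin and 90 and 79 in wild-type cells. The 3 groups were apart. Its difference after auxin was 1.26-fold (log2 0.33, standard error 0.11) and was not called, although it was called without untreated replicate 1 and with the replicate number as a block.

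**Figure D2:**
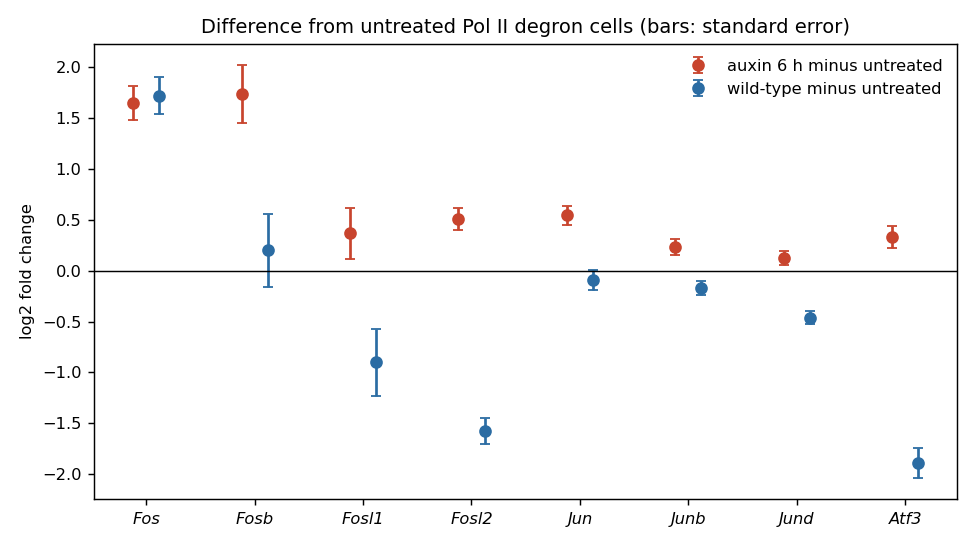
Log2 fold change (vertical axis) of each AP-1 gene (horizontal axis) for auxin minus untreated in red and wild-type minus untreated in blue, with the standard error of the edgeR fit as bars, both against the same 2 untreated libraries. After auxin the points run from 0.12 for Jund, which turned to −0.05 with mitochondrial scaling, to 1.74 for Fosb, and for wild-type cells from −1.89 for Atf3 to 1.72 for Fos, which turned to −0.37 with mitochondrial scaling.

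Wild-type cells differed from untreated degron cells in both directions. Fos was 3.30-fold higher in wild-type cells with TMM scaling, though at −0.37 on the log2 scale with mitochondrial scaling, and was the 1 gene of the 8 called higher, beside 29.9% of the 15778 genes tested, while Fosl1, Fosl2, Junb, Jund and Atf3 were called lower, 5 of 8, beside 30.7%. Without overlap of the libraries 1 gene was higher and 6 were lower, beside 40.0% and 41.0% of all genes. With scaling to the mitochondrial mRNAs, whose share differed between the groups, the median of all genes was −2.10 and all 8 AP-1 genes were below 0. Every difference from wild-type cells that follows is on TMM scaling, that is, relative to the typical gene. The untreated libraries serve in both comparisons, so a deviation of these libraries would enter both.

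Among the Fos family, the log2 fold change of wild-type over untreated was 1.72 for Fos with a standard error of 0.18. For Fosb it was 0.20 with a standard error of 0.36, and the libraries overlapped. Fosl1 was at −0.90 with a standard error of 0.33, or 1.87-fold lower, a call lost in 4 of 13 alternative settings, among them without untreated replicate 1 and without wild-type replicate 2, and Fosl2 at −1.57 with a standard error of 0.13, or 2.98-fold lower. Fos and Fosl2 thus differed from untreated cells in opposite directions with TMM scaling, and with mitochondrial scaling both were lower. In their expression classes, 59 of 2781 genes (2.12%) were as far above as Fos and 48 of 4457 (1.08%) as far below as Fosl2.

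In the Jun family, Jun was at −0.09 with a standard error of 0.10, and its libraries, apart on the scaling of 4 libraries, overlapped on that of 6. Junb was at −0.17 with a standard error of 0.07, a call that was lost in 7 of 13 alternative settings, among them without either wild-type library, and Jund was at −0.46 with a standard error of 0.06, or 1.38-fold lower. Atf3 was the furthest of the 8, at −1.89 with a standard error of 0.15, or 3.70-fold lower, with 66 of 2781 genes (2.37%) of its class as far below.

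**Figure D3:**
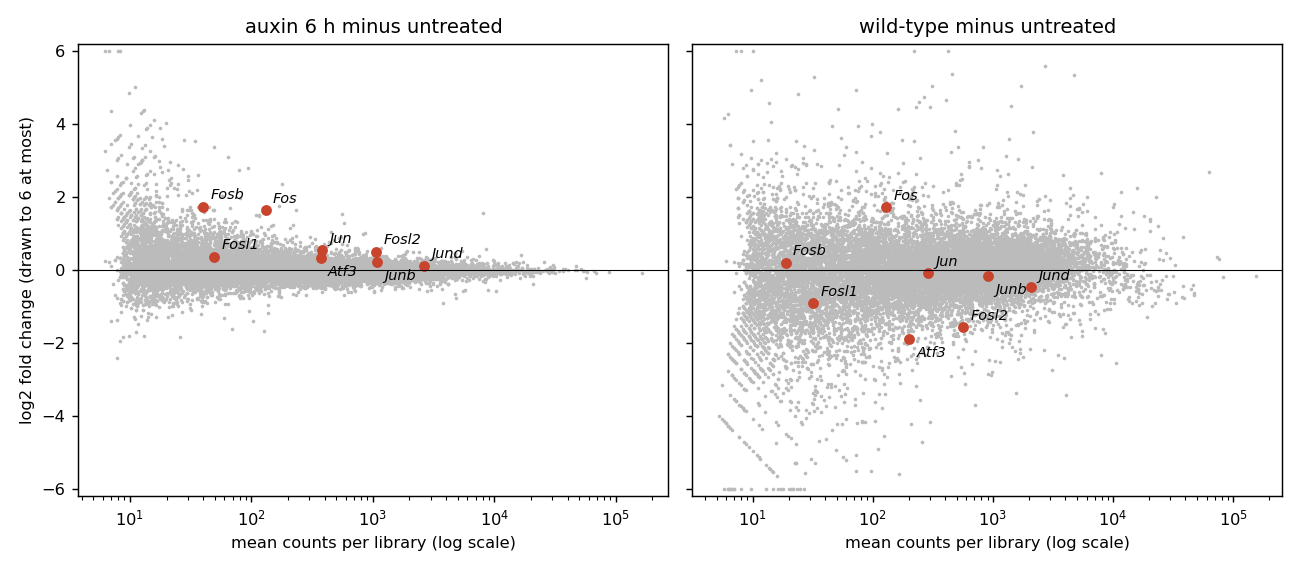
Log2 fold change (vertical axis, points beyond 6 drawn at 6) against mean counts per library (horizontal log axis) for all genes tested (grey) and the 8 AP-1 genes (red), for auxin minus untreated on the left and wild-type minus untreated on the right. Differences spread more at low counts, where Fosb and Fosl1 lie, and more in the right panel, where most AP-1 genes lie inside the grey cloud and Fos, Fosl2 and Atf3 near its border. With mitochondrial scaling the cloud shifts by −0.17 on the left, where Jund falls below 0, and by −2.10 on the right, where Fos does.

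Across the 3 groups, scaled together by TMM, the AP-1 genes showed 3 orders of mean level. For Fosl1, Fosl2, Jun, Junb, Jund and Atf3 the mean was lowest in wild-type, intermediate in untreated and highest in auxin-treated cells, although wild-type and untreated overlapped for Jun and untreated and auxin overlapped for Jund. Fos was lowest in untreated cells, and Fosb was highest after auxin. Auxin-treated degron cells were 4.52-fold above wild-type cells for Atf3, 4.09-fold for Fosl2, 2.82-fold for Fosb and 2.33-fold for Fosl1, all as ratios of mean CPM, while for Fos that ratio was 0.919.

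Divided by exon length, Jund had the highest level in every group, with 99.98 ± 4.15 CPM per kb (SD, n = 2) in untreated, 107 ± 7.30 in auxin-treated and 74.0 ± 1.29 in wild-type cells. Junb followed with 28.7 ± 0.23, 33.2 ± 3.33 and 26.0 ± 0.29 CPM per kb. In untreated cells the order went on with Atf3 at 10.1 ± 1.29, Jun at 6.45 ± 0.31, Fosl2 at 6.00 ± 1.22, Fos at 1.76 ± 0.02, Fosl1 at 1.41 ± 0.32 and Fosb at 0.19 ± 0.01 CPM per kb, and of these neighbours only Jun and Fosl2 overlapped. The order was the same after auxin, with no overlap between neighbours. In wild-type cells Jun and Fos came next after Junb, at 6.18 ± 0.08 and 5.92 ± 0.95 CPM per kb with overlap, ahead of Atf3 at 2.78 ± 0.27 and Fosl2 at 2.05 ± 0.01. The level per kb rests on the exon union of the annotation, which is longer than the main transcript for 6 of the genes and lowers their values.

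**Figure D4:**
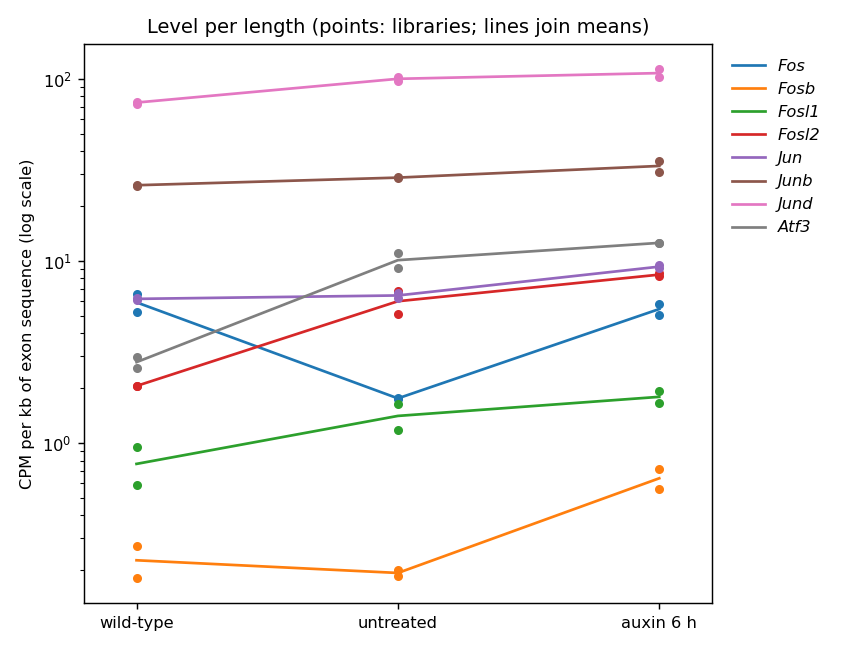
Level per length in CPM per kb of exon sequence (vertical log axis, TMM scaling over the 6 libraries) in wild-type, untreated and auxin-treated cells, with points for libraries and lines joining group means. Jund and Junb lie highest in every group, and the line of Fos dips to 1.76 CPM per kb in untreated cells, below Atf3 and Fosl2, which lie under it in wild-type cells. The order of genes within a group does not depend on the scaling, while the slopes do.

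As shares of the summed level per length of the 8 genes, Jun, Junb and Jund together made up 86.0% and 88.8% in the untreated libraries, 83.6% and 84.2% after auxin and 89.4% and 90.7% in wild-type cells. The 4 Fos family genes made up 6.81% and 5.30%, 9.10% and 9.09%, and 8.13% and 7.05% in the same order. Fos alone was 1.15% and 1.12% of the sum in untreated, 2.98% and 3.10% in auxin-treated and 5.48% and 4.53% in wild-type libraries. The share of Fosl2 ran from 3.30% to 4.82% in the degron libraries and was 1.71% and 1.78% in wild-type cells. Atf3 was between 5.90% and 7.34% in the degron libraries and was 2.47% and 2.23% in wild-type cells. These shares do not depend on the scaling of the libraries. Jund alone made up between 60.1% and 66.2% of the sum in every library.

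Genes whose profile over the 6 libraries was most like that of Fos were ranked by the root mean square distance between centred log2(CPM + 1) values, among 14282 genes. The nearest 5 were Tsnaxip1 (0.20), Slc5a3 (0.22), Lcat (0.28), Jsrp1 (0.30) and Star (0.31). Slc5a3, which encodes a myo-inositol transporter, had 296 and 241 counts untreated, 884 and 801 after auxin and 621 and 640 in wild-type cells. Star, which brings cholesterol into mitochondria, had 61 and 63, 126 and 149, and 137 and 100. Tsnaxip1, Lcat and Jsrp1 had 13 to 19 counts in the untreated libraries and 34 to 80 in the others. Slc5a3 overlaps Mrps6 on the same strand, and Tsnaxip1 and Lcat overlap genes on the other strand, so their counts are uncertain. Of the AP-1 genes the nearest to Fos was Fosb, at rank 2725, and the most distant was Atf3, at rank 14035.

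The other genes of the pathway were taken as 6 lists with 60 genes tested, of which 5 were called after auxin and 46, of them 20 higher and 26 lower, between wild-type and untreated cells. The lists were chosen with earlier results of these data known, and the called genes named were picked by the smallest p. Their adjusted p-values, here and in the list paragraphs below, are a description and not independent evidence. Among all genes tested, 2.56% were called higher and 1.64% lower after auxin, and 29.9% higher and 30.7% lower in wild-type cells, with medians of 0.00 and −0.01, and the counts of each list are to be read beside these shares. With mitochondrial scaling 60 of the 60 were lower in wild-type cells, and the median of all genes after auxin was −0.17. The directions given, after auxin and in wild-type cells alike, are therefore relative to the typical gene. After auxin, 12 were called without untreated replicate 1 and 1 without either auxin library. Of the genes named, Maf, Nfe2l2 and Hmox1 lost their call without either auxin library, and Zfp36l1 kept it. With mitochondrial scaling and with no filter each of these genes, Zfp36l1 included, lost its call, and Maf also lost it with DESeq2. Among 11 partners of the same bZIP class, 2 rose and 1 fell after auxin. Maf rose by 0.52 (standard error 0.13, adjusted p = 0.0361, edgeR's quasi-likelihood test), from 197 and 169 to 286 and 279 counts, and Nfe2l2, which directs the response to oxidative stress, fell by 0.35 (adjusted p = 0.0133, edgeR). In wild-type cells 7 of the 11 were lower, beside 30.7% of all genes, and 1 was higher, beside 29.9%, with list medians of −0.59 on the log2 scale there and 0.06 after auxin. Jdp2, which pairs with Jun and represses, had 654 and 674 counts untreated, 596 and 596 after auxin and 233 and 223 in wild-type cells, a difference of −1.53 (adjusted p = 7.43e-08, edgeR), and Maf was at −2.97 (adjusted p = 1.26e-06, edgeR). Mafa was the 1 higher partner, at 0.54 (adjusted p = 0.0287, edgeR), a call lost without untreated replicate 2 and without wild-type replicate 1.

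The kinases and promoter-binding factors that switch on Fos and Jun were not called after auxin, 0 of 13 and 0 of 7 genes by edgeR and 0 by DESeq2, with 1 and 0 at an unadjusted p under 0.05 by edgeR and medians of −0.04 and 0.01. In wild-type cells 5 of the 13 kinases were higher, beside 29.9% of all genes, and 2 were lower, beside 30.7%, with a list median of 0.04. Rps6ka1 (log2 0.61, adjusted p = 4.91e-06), Map2k1 (0.59, adjusted p = 7.11e-06) and Rps6ka5 (0.91, adjusted p = 0.000177), which encode RSK1, MEK1 and MSK1, were higher by edgeR, and Map2k2, which encodes MEK2, was lower (−0.43, adjusted p = 0.000215). For the 7 promoter-binding factors, 3 were higher, beside 29.9% of all genes, and 1 was lower, beside 30.7%, with a list median of 0.22. Of the factors, Elk4, Mkl2 and Srf were higher, by 0.65, 0.52 and 0.22, and Elk1 was lower, by −0.47, and the call of Srf was lost without untreated replicate 2 and without either wild-type library.

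The MAP kinase phosphatases, which switch these kinases off and are themselves early response genes, were at a median of 0.02 after auxin with 0 of 9 called by edgeR or DESeq2 and 2 at an unadjusted p under 0.05 by edgeR. In wild-type cells 6 were lower, beside 30.7% of all genes, and 2 higher, beside 29.9%, with a list median of −1.15. Dusp4 had 2656 and 2872 counts untreated, 2892 and 3056 after auxin and 583 and 640 in wild-type cells (log2 −2.17, standard error 0.07, adjusted p = 1.61e-09, edgeR). Dusp10, Dusp5 and Dusp1 were lower by −1.88, −1.22 and −0.58, and Dusp16 and Dusp6 were higher by 0.41 and 0.35.

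Of 10 tested genes known as AP-1 targets, 1 was called after auxin, Hmox1, the heme oxygenase, which fell by 0.32 (adjusted p = 0.0189, edgeR). The median of the list was 0.16, and 1.64% of all genes were called lower. The calls of this list changed with the setting: without untreated replicate 1 it had 4 genes called higher and 1 lower, and with the replicate block 3 higher and 1 lower, the higher genes being Mmp9, Plaur and Hbegf, named here after their values were seen. With either auxin library left out, 0 of the 10 were called by edgeR, with 2 at an unadjusted p under 0.05. In wild-type cells 8 were lower, beside 30.7% of all genes, and 2 higher, beside 29.9%, with a list median of −1.02. Hmox1 had 2674 and 2590 counts untreated, 2279 and 2266 after auxin and 693 and 656 in wild-type cells, a difference of −1.95 (adjusted p = 2.24e-09, edgeR). The matrix metalloproteinase gene Mmp9 was at −2.19 (adjusted p = 7.23e-07), the hyaluronan receptor gene Cd44 at −1.55 (adjusted p = 1.45e-06) and the metallothionein gene Mt2 at −0.88 (adjusted p = 5.26e-07) by the same edgeR test, and Ccnd1, which encodes cyclin D, and the growth factor gene Hbegf were higher, by 0.61 and 0.47.

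Among 10 genes for turnover of AP-1 mRNAs and proteins, Zfp36l1, a protein that binds AU-rich elements and speeds mRNA decay, rose after auxin, from 582 and 547 to 878 and 975 counts (log2 0.61, standard error 0.09, adjusted p = 0.00282, edgeR). It was the 1 call of this list after auxin, beside 2.56% of all genes called higher. The level of Zfp36l1 in wild-type cells was 771 and 834 counts. In wild-type cells 7 of the 10 were higher, beside 29.9% of all genes, and 2 lower, beside 30.7%, with a list median of 0.46. Khsrp and Hnrnpd, which encode proteins of AU-rich element binding, were higher by 1.08 (adjusted p = 7.39e-08) and 1.12 (adjusted p = 7.43e-08), both by edgeR.

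**Figure D5:**
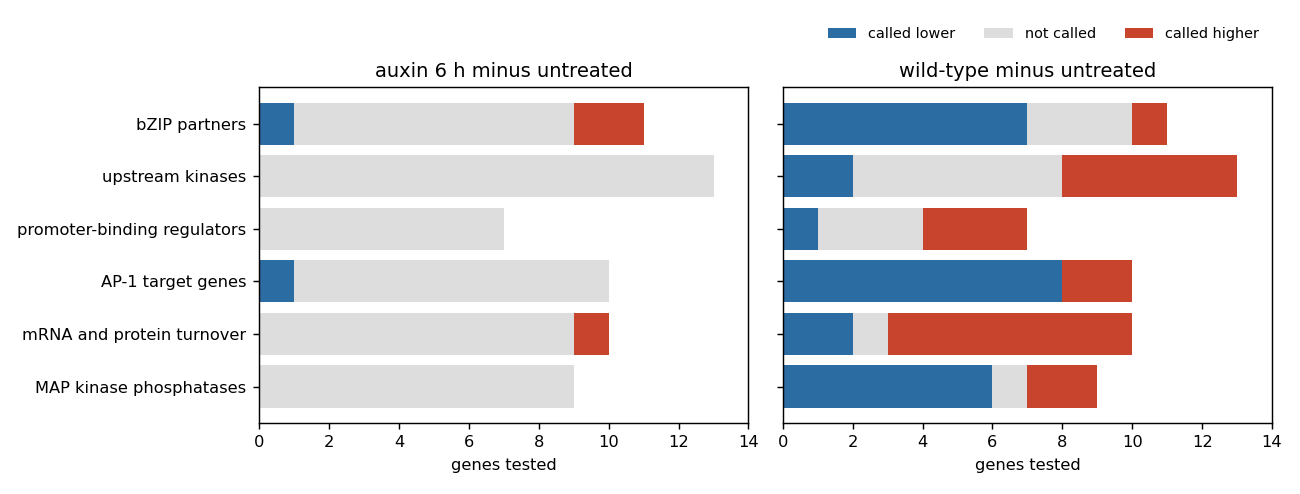
Number of genes tested (horizontal axis) in each of 6 pathway lists (vertical axis), divided into genes called lower (blue), not called (grey) and called higher (red) by edgeR with TMM scaling, for auxin minus untreated on the left and wild-type minus untreated on the right. On the left 5 of 60 genes are coloured and on the right 46 of 60, and with mitochondrial scaling 1 is called on the left and 60 are lower on the right.

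Marker levels of fibroblasts and of mESCs are given beside these values. The mESCs were grown on irradiated mouse embryonic fibroblasts (MEF), and the study states that they were harvested after 2 passages of MEF feeders. Whether feeder cells remained in these libraries was not tested. The summed level of 12 fibroblast markers was 286 and 269 CPM in untreated, 320 and 367 in auxin-treated and 196 and 197 in wild-type libraries. That is the same order of groups as for 6 of the AP-1 genes, but single markers did not all follow it. After auxin the list median was 0.34 on the log2 scale, with Pdgfrb at −0.08 and Thy1 at −0.18. Col5a1 and Col1a2 were called higher after auxin, 2 of 9 tested, beside 2.56% of all genes. In wild-type cells 4 of 9 were lower, beside 30.7%, and 2, Postn and Pdgfra, were higher, beside 29.9%. The list median there was 0.01 on the log2 scale. In each library 1 or 2 of the 12 were at 0, and Lum, Dcn and Fap had at most 4 counts. The 10 mESC markers summed to 4318 and 4947 CPM in untreated, 3644 and 3918 in auxin-treated and 7565 and 7479 in wild-type libraries. Of the 10, 4 were called lower after auxin, beside 1.64% of all genes. In wild-type cells 7 were called higher and 1, Zfp42, lower, beside 29.9% and 30.7%. The part of either in the AP-1 levels was not tested.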

How the data were processed

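PolyA RNA was sequenced in 6 libraries. The submitters' processing notes name HISAT2 2.1.0, Salmon, HTSeq and DESeq2, with mm10. Raw counts of 39017 genes were deposited by the authors in 2 tables, without normalization; their DESeq2 columns (log2 fold change, fold, adjusted p-value) and 2 per-sample columns that match no sample were not used. The release of GENCODE they used and the strand setting are not given in the sources used here. Totals of 14094022 to 15358714 counts make genes with few counts less precise.

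The counts were compared by edgeR 4.0.16 under R 4.3.3 (glmQLFit, glmQLFTest, TMM, filterByExpr with a minimum count of 10, prior count 0.125, Benjamini-Hochberg adjustment, called under 0.05), each comparison on its own 4 libraries, and the procedure was tested on simulated data. Standard errors are the fold change over the root of F. The study states that high-throughput experiments had biological replicates, but the labels do not tie these libraries to separate cultures, so p-values measure the spread between libraries, which may be technical. Replicate numbers are not stated to pair libraries.

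The AP-1 genes and the lists were chosen with earlier results of these data known. Named were the 8 genes, Polr2a, up to 4 called genes per list, comparison and direction with the smallest p, the 5 genes nearest to Fos, and cell type markers; overlapping genes were added for the counts they share, and a called gene of the lists is not reported here. Annotation was GENCODE vM21 (37607 IDs found), and promoters came from RefSeq. Alternatives were DESeq2 1.42.0, its size factors, library totals, mitochondrial scaling, other filters, a prior count of 5, the replicate block, all 6 libraries in one fit, a log2 threshold of 1, and each library left out. The prior count of 5 acts on fold changes only, so the calls of the AP-1 genes could not change with it.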

Additional observations from a re-analysis of the deposited data

How the results depend on the processing

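Of 208 alternative values of the AP-1 genes, 182 moved by less than the replicate spread and 25 by more, and 1 value of a called gene changed sign: with mitochondrial scaling, Fos in wild-type cells went to −0.37. Values that were not called changed sign for Fosb in wild-type cells, to −1.88 with mitochondrial scaling and −0.10 without wild-type replicate 2, and for Jund after auxin, to −0.05 with mitochondrial scaling. After auxin, 677 genes, 4 AP-1 genes and 5 pathway genes were called. With mitochondrial scaling these were 219, 2 and 1 (167 genes higher and 52 lower, against 413 and 264), with no filter 55, 1 and 0 (13 pathway genes at an unadjusted p under 0.05, edgeR, and 3 called by DESeq2), and with a log2 fold change over 1 as well 247, 2 and 1. With 10 counts in every library 432 genes were called, with DESeq2 236 genes and 3 pathway genes, and with all 6 libraries in one fit 1235 genes and 8 pathway genes. With the replicate number as a block 1930 genes, 6 AP-1 genes and 12 pathway genes were called after auxin, and 9689, 5 and 47 in wild-type cells; replicate differences correlated by 0.12 and −0.06, and nothing says that the numbers pair libraries. Leaving out 1 library, with the lone library assumed to vary like the others, gave 179 to 2724 genes, 1 to 6 AP-1 genes and 1 to 12 pathway genes after auxin. The highest values came without untreated replicate 1 (2724, 6 and 12) and the lowest without auxin replicate 2 (179, 1 and 1), with 184 genes and 3 AP-1 genes without auxin replicate 1 and 1114 genes without untreated replicate 2. Between wild-type and untreated cells 9555 genes, 6 AP-1 genes and 46 pathway genes were called. This became 15308 genes with mitochondrial scaling (15235 lower), and 2861, 3 and 15 with a log2 fold change over 1, and ranged over 7532 to 9570, 4 to 6 and 38 to 52 with 1 library left out. Fosb after auxin lost its call with no filter and without auxin replicate 2. Fosl2 lost it with mitochondrial scaling, no filter and without either auxin replicate, and Jun with mitochondrial scaling, no filter, DESeq2 and without auxin replicate 2. Fosl1 in wild-type cells lost it with no filter, DESeq2, and without untreated replicate 1 or wild-type replicate 2. The cause of these changes was not tested. Groups of 2 libraries and, for Fosb and Fosl1, few counts limit the precision.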
